A study of Homo sapiens with 18 samples.

Results

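The assay for transposase-accessible chromatin with sequencing (ATAC-seq) was compared between G-K562 and V-K562 cells. K562 is a chronic myelogenous leukemia line with erythroid features. V-K562 carries an empty vector, G-K562 expresses BASP1-G2A, a form of BASP1 that cannot be N-myristoylated, and B-K562, used here only as a side value, expresses wild-type BASP1. All 3 lines are stably transfected pools under G-418, not clones, with 3 biological replicates each, and the cells for ATAC-seq were treated with DNase before harvest. Overlapping peak intervals of the 3 V-K562 and 3 G-K562 libraries were merged into 80715 regions, and 54362 of these, each seen as a peak by 3 or more of the 6, were tested whatever their values. The merge of all 9 libraries of the series gave 85549 regions.

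BASP1 is a corepressor that works with the transcription factor WT1, and its lipid tail is the part that the G2A change removes. The Tn5 transposase of ATAC-seq inserts where nucleosomes leave DNA free, so a peak marks an accessible promoter, enhancer or insulator. In erythroid cells many enhancers are held open by GATA1, which binds GATA motifs together with TAL1 and LMO2 and drives globin, heme and red cell membrane genes, while RUNX1 acts in stem cell and megakaryocyte enhancers.

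The value of a region in a library was the pileup of tags at its highest summit, printed below as deposited, after the authors had sampled all libraries to equal tag numbers. Log2 fold changes are G-K562 over V-K562 after scaling of the libraries, with the standard error (SE) and the adjusted p of limma. A region is called opened or closed at an adjusted p of at most 0.05 and a change of at least 2-fold. A library without a peak, or with a scaled pileup below 17, was given the value 17, the 5th percentile of summits. The fold change there is an estimate against a filled value. This can also hold for low peaks in regions with a peak in all 6 libraries. Where a line had no peak in any library, its values were all 17. The SE and adjusted p of such a region hold no spread of that line. It also passed the peak filter only through the other line.

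The sequences of 11 called regions are shown because 7 of them closed and hold the GATA motif AGATAAG, and 4 opened and hold the RUNX motif TGTGGTT. They were picked to show these pairings. RUNX matches also stood in closed regions not shown, among them those of CDHR3 and ETV1. Each is the 201 bases around the summit, GRCh38, plus strand, 5′ to 3′, with the motif on either strand in capitals. The closed ones come first, from a distal site whose nearest protein-coding start is that of MYLIP, from introns of UHRF1BP1, CERS6, TANGO2 and CPOX, from just upstream of the RHCE start and from the start of ACKR1, both blood group genes.
MYLIP distal, chr6:16031293-16031493: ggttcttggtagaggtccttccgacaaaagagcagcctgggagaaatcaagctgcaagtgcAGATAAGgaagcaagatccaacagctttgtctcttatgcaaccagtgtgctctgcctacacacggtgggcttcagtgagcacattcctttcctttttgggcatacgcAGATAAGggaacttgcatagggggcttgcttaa
UHRF1BP1 intron, chr6:34865149-34865349: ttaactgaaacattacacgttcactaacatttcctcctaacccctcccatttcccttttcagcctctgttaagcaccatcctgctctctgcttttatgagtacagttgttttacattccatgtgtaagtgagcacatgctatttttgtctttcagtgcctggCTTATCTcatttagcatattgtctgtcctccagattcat
CERS6 intron, chr2:168686077-168686277: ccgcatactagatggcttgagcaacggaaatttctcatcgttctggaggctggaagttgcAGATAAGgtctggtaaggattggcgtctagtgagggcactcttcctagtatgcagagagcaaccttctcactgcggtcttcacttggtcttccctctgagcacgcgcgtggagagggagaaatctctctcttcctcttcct
TANGO2 intron, chr22:20025469-20025669: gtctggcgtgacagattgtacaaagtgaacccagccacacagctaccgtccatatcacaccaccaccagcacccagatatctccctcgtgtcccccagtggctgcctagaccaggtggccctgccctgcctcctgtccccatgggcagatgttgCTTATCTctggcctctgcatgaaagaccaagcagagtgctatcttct
CPOX intron, chr3:98583837-98584037: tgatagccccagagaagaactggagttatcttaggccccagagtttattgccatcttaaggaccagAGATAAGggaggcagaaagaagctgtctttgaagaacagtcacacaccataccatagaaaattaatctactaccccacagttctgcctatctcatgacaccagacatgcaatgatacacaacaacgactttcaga
RHCE upstream, chr1:25420829-25421029: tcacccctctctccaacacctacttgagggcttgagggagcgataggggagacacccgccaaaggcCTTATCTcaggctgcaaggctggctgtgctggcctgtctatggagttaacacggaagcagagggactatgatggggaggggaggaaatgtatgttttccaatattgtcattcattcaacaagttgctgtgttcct
ACKR1 start, chr1:159204845-159205045: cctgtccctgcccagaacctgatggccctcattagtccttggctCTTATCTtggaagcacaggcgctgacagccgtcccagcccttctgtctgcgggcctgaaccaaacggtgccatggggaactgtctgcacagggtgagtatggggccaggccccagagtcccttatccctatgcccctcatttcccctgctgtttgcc
The opened ones lie at the GPR132 start, in WT1, in an intron of KEL, and beyond 10 kb of the OR1D5 start. The WT1 one lies upstream of a start inside the gene and downstream of other WT1 starts.
GPR132 start, chr14:105065405-105065605: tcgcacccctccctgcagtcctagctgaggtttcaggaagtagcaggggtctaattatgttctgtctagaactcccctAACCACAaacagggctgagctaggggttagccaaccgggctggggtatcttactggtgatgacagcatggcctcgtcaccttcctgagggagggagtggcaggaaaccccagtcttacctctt
WT1 upstream, chr11:32420925-32421125: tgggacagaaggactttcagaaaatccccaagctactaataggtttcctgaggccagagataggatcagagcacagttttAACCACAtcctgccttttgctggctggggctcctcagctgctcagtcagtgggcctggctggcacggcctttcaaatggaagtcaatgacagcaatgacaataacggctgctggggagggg
KEL intron, chr7:142954909-142955109: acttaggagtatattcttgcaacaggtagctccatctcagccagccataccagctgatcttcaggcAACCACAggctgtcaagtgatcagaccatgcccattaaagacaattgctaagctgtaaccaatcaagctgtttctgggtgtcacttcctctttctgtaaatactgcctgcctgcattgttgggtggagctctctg
OR1D5 distal, chr17:3048861-3049061: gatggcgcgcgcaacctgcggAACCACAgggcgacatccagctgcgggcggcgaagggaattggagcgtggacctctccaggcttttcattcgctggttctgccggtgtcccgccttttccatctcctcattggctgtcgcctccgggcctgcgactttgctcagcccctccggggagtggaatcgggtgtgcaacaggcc

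The libraries held 48408 to 55570 peaks each, and the mean pileup over an interval averaged 40.3 to 40.9 tags in V-K562 and 50.7 to 52.3 in G-K562. The median summit pileup was 41 tags in each V-K562 library and 46 to 47 in G-K562. Log2 pileups correlated across regions with Pearson r of 0.93 to 0.96 within a line and 0.78 to 0.82 between the lines. In RNA-seq of the same lines BASP1 had values of 5 to 7 in V-K562 and 8124 to 12538 in G-K562, in the direction of the labels. All 11 K562 markers were detected, with sums of 97279 to 108138 in V-K562 and 54874 to 60786 in G-K562. Sums of 4 monocyte and granulocyte markers were 1383 to 1482 and 4098 to 4620, of 4 T cell markers 427 to 591 and 184 to 255, of 4 B cell markers 129 to 151 and 97 to 144, of 4 fibroblast markers 1497 to 1768 and 1157 to 1280, and of 4 epithelial markers 31871 to 33445 and 39306 to 40592. CD2, CD8A, MS4A1, CD79A and PDGFRA stayed below 10 in all 6 libraries. The part of these markers in the results was not tested, and in pools of cells fewer cells with an accessible region and less accessibility per cell cannot be told apart.

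In G-K562 1566 regions opened (2.88% of those tested) and 7150 closed (13.2%), so that 82% of the called regions were closed. This balance depended on the scaling. The scaling divided G-K562 pileups by a factor 1.28 larger than V-K562 pileups, and with the deposited values as they stood 4349 regions opened (8.0%) and 4606 closed (8.47%), a closed share of 51.4%. With scaling within bins of GC content 1847 opened (3.40%) and 5029 closed (9.25%), a closed share of 73.1%. The median log2 fold change over all tested regions was -0.10 with the scaling and 0.19 without it. All 1566 opened regions were also called opened without scaling, and 4606 of the 7150 closed regions were also called closed. Leaving out the scaling raises G-K562 against V-K562 throughout. The retention of opened calls and the loss of closed calls were thus built in and are no test of the opened set.

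The change moved with base composition and with level. Among the 30843 regions with a peak in all 6 libraries, the median log2 fold change went from -0.41 in the quintile with the lowest GC content to 0.35 in the quintile with the highest. By mean summit pileup it went from -0.30 in the lowest quintile to 0.32 in the highest, from 0.03 to 0.67 without scaling and from -0.12 to 0.14 with scaling within GC bins. Opened regions had a median GC content of 58.9%, closed regions 47.3% and all tested regions 52.8%. The part of base composition in the calls was not tested beyond the scaling within GC bins.

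Most calls were of regions that lacked a peak in part of the libraries. At 5515 regions every V-K562 library had a peak and no G-K562 library did, and 2677 of them closed. The mirror pattern, 3 G-K562 peaks and no V-K562 peak, was found at 2391 regions, of which 646 opened. Of the regions with a peak in all 6 libraries, 426 opened and 2398 closed. At the border of the rule, regions with a peak in 3 of 6 libraries had a median summit of 28 tags, and the 9753 regions left out with a peak in 2 had 23.

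Among regions with a peak in all 6 libraries, the 6 that fell most were distal or intronic. In a RUNX-bearing intron region of CDHR3, a cadherin-related gene, V-K562 had pileups of 202, 236 and 223 and G-K562 21, 24 and 22 (log2 fold change -3.59, SE 0.13, adjusted p 1.0e-04). The GATA-bearing MYLIP distal region had 227, 208 and 225 against 41, 24 and 33 (-3.09, SE 0.18, adjusted p 1.6e-04). Both were picked as the largest falls, so the gap between G-K562 and V-K562 is part of that choice. The B-K562 pileups of 269, 278 and 291 and of 254, 240 and 214 lay near the V-K562 values. The GATA-bearing CERS6 intron went from 131, 170 and 134 to 36, 18 and 18 (-2.90, SE 0.26, adjusted p 3.0e-04). B-K562 had 81, 98 and 79 there, also below V-K562. CERS6 is a ceramide synthase, and its RNA went from 1411, 1471 and 1453 to 131, 165 and 146 (RNA log2 fold change -3.29, SE 0.09, adjusted p 2.7e-10). The others were in an intron of UHRF1BP1 (-2.92) and distal to GPD1L (-3.03) and UCHL5 (-2.97). UHRF1BP1 RNA did not pass the test (0.05, adjusted p 0.64).

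The 6 largest rises among such regions included 2 starts and a region just upstream of a start. At the start of GPR132, a proton- and lipid-sensing receptor, V-K562 had 43, 36 and 33 and G-K562 243, 167 and 228 (2.12, SE 0.17, adjusted p 2.4e-04). Its RNA rose from 76, 67 and 84 to 469, 368 and 576 (RNA log2 fold change 2.60, adjusted p 7.9e-08). At the start of RAB3C, a vesicle GTPase, V-K562 had 20, 30 and 18 and G-K562 131, 111 and 125 (2.07, SE 0.21, adjusted p 4.2e-04), although RAB3C RNA was 0 or 1 in every library. RNA was thus higher at GPR132 and near 0 at RAB3C. Upstream of PPP4R4, V-K562 had 20, 16 and 18 and G-K562 99, 74 and 106 (1.95, SE 0.19, adjusted p 4.2e-04). The remaining rises were distal regions, in LINC00461 (1.95) or with OR1D5 (2.02) or CD2 (1.86) as the gene of the nearest start. The OR1D5 distal region had 29, 21 and 30 in V-K562, 129, 153 and 138 in G-K562 and 88, 77 and 77 in B-K562.

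**Figure D1:**
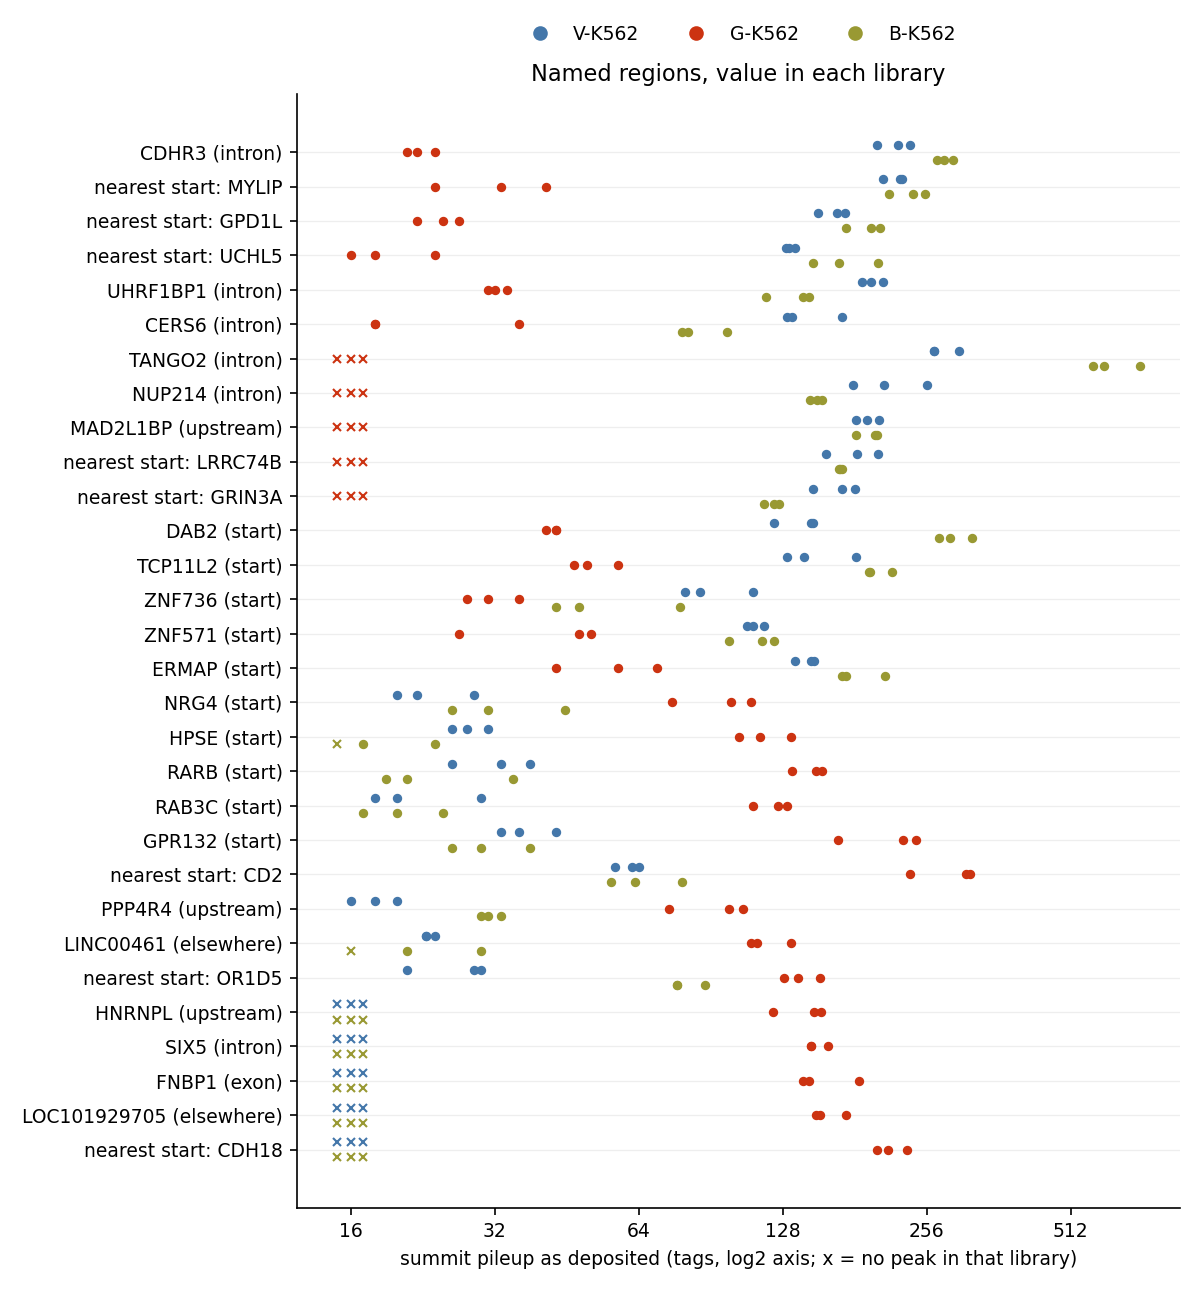
Summit pileup as deposited (log2 axis) of the named regions with the largest changes, 1 point per library, V-K562 blue, G-K562 red and B-K562 olive, with a cross where a library had no peak. The 16 closed regions stand above and the 14 opened below. Rows were chosen for the size of change or for a peak in 1 line alone. The gap between V-K562 and G-K562 points is part of that choice.

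Some regions had a high peak in every library of one line and none in the other. They entered the test only through the line with peaks, and their SE and adjusted p hold no spread of the line without. The highest of those lost in G-K562 was the GATA-bearing TANGO2 intron, with 265, 299 and 265 in V-K562 and no G-K562 peak (-4.12, SE 0.12, adjusted p 6.7e-05). B-K562 had 714, 602 and 570 there, above V-K562. TANGO2 RNA did not pass the test (-0.07, adjusted p 0.27). The next 4, in NUP214 (209, 257 and 180 in V-K562), by MAD2L1BP (204, 182 and 192), and distal to LRRC74B (203, 158 and 183) and GRIN3A (181, 148 and 170), had B-K562 pileups of 117 to 202. GATA matches stood in 4 of these 5 regions.

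Regions gained in G-K562 alone had no peak in any V-K562 or B-K562 library. The highest lay far from genes, nearest to the start of CDH18 on chromosome 5, with 233, 213 and 202 tags (3.41, SE 0.14, adjusted p 1.0e-04). An exon region of FNBP1, a membrane-curving adaptor, had 145, 141 and 185 (2.95, SE 0.16, adjusted p 1.4e-04). FNBP1 RNA rose from 625, 737 and 661 to 5222, 3984 and 5733 (RNA log2 fold change 2.87, adjusted p 3.5e-09). Regions of SIX5 (147, 147 and 159 tags), HNRNPL (122, 154 and 149) and a site by LOC101929705 (174, 153 and 150) completed the 5. RNA log2 fold changes were -0.15 for the splicing factor HNRNPL (adjusted p 0.025, under 2-fold), and SIX5, a homeobox factor, rose in RNA (adjusted p 1.9e-07).

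Opened and closed regions lay at different places. Starts, meaning a summit within 100 bp of a protein-coding start, held 14.7% of tested, 18.8% of opened and 2.17% of closed regions. Introns held 31.1%, 26.5% and 40.9%, and sites elsewhere, beyond 5 kb upstream or 1 kb downstream of a gene, 35.7%, 28.9% and 44.2%. The median distance to a start was 4.62 kb for opened, 25.8 kb for closed and 12.8 kb for all tested regions. Of 8010 start regions 295 opened (3.68%) and 155 closed (1.94%). Without scaling 1236 opened and 91 closed, and with scaling within GC bins 145 opened and 149 closed, so the excess of opened over closed starts was absent with the latter. Of 16900 intron regions 415 opened and 2921 closed, and closed regions outnumbered opened ones in introns without scaling (955 and 1839) and within GC bins (656 and 1951).

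**Figure D2:**
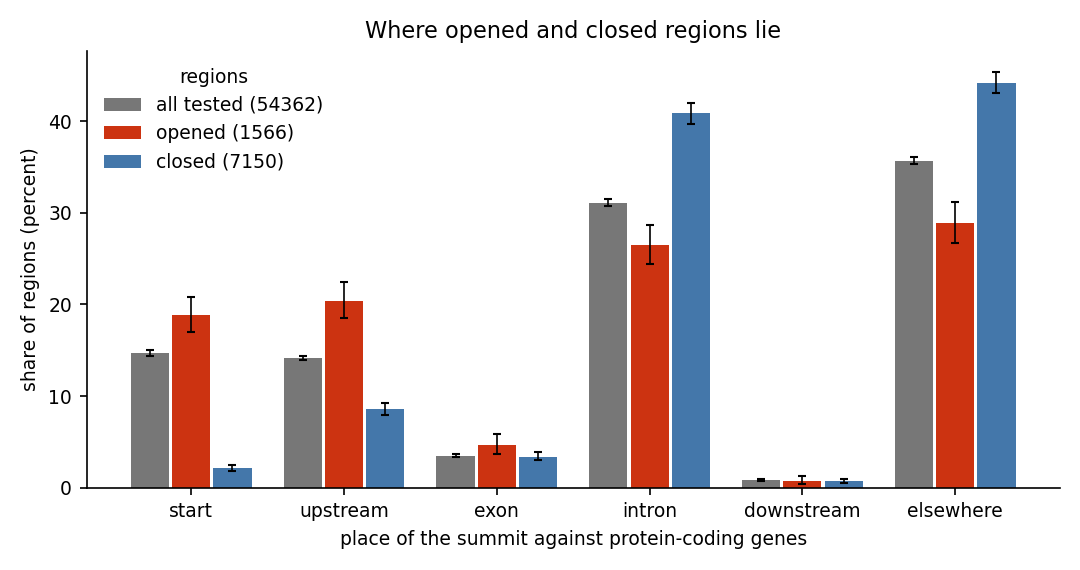
Share of regions (percent, from 0) by place of the summit, for all tested, opened and closed regions, with Wilson 95% intervals that cover counting error only. Closed regions have the lowest share at starts (2.17%) and the highest in introns (40.9%) and elsewhere (44.2%).

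The starts with a peak in all 6 libraries that opened most were, after GPR132 and RAB3C, those of RARB, HPSE and NRG4. RARB, a retinoic acid receptor, had 26, 33 and 38 in V-K562 and 134, 150 and 155 in G-K562 (1.81, SE 0.16, adjusted p 3.2e-04), and its RNA rose from 28, 18 and 34 to 143, 148 and 165 (2.51, adjusted p 1.3e-06). HPSE, the heparan sulfate cleaving enzyme, opened by 1.66 and its RNA rose by 1.55. NRG4, an ERBB4 ligand, opened by 1.62 and its RNA rose by 1.77. All 4 of these 5 genes that were tested in RNA therefore rose.

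The starts that closed most were those of DAB2, TCP11L2, ZNF736, ZNF571 and ERMAP. DAB2, an endocytic adaptor, had 147, 123 and 148 in V-K562, 43, 43 and 41 in G-K562 and 318, 287 and 272 in B-K562 (-2.04, SE 0.13, adjusted p 1.8e-04). In the fit of 9 libraries G-K562 lay below B-K562 there by -2.97 (adjusted p 3.6e-07). DAB2 RNA fell from 2132, 2139 and 1937 to 311, 286 and 273 (-2.83, adjusted p 2.0e-10). ERMAP, an erythroid membrane protein that carries a blood group, closed from 149, 147 and 136 to 70, 43 and 58 (-1.70, SE 0.17, adjusted p 4.1e-04), and its RNA fell by 1.93. RNA also fell for TCP11L2 (from 394, 499 and 529 to 237, 208 and 262) and for the zinc finger genes ZNF736 (-2.07) and ZNF571 (-2.62). Genes with ZNF symbols, a class singled out after the values were seen, held 24 of the 155 closed starts (15.5%), 5 of the 295 opened starts (1.69%) and 4.19% of all start regions.

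At genes with a changed start, RNA was more often called in the direction of the region. RNA was called at the same thresholds as regions, and of 15271 genes tested 8.81% rose and 10.3% fell. Of the 264 tested genes whose start region opened, 47 rose and 7 fell, with a median RNA log2 fold change of 0.34. Of the 134 whose start region closed, 6 rose and 82 fell (61.2%), with a median of -1.43. The 6848 genes with a tested start region had 5.59% higher and 6.97% lower, with a median of -0.01.

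**Figure D3:**
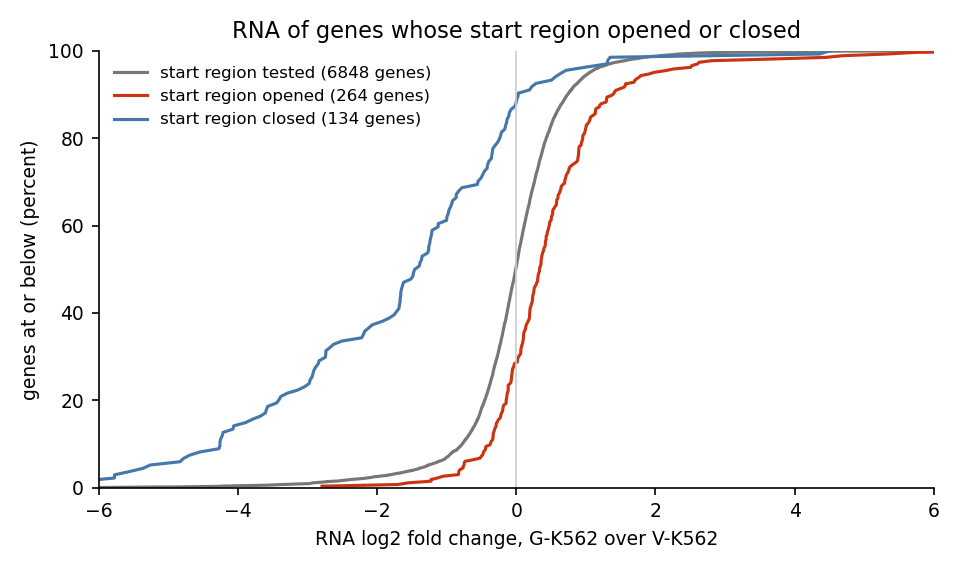
Cumulative share of genes (percent) against their RNA log2 fold change, G-K562 over V-K562, for genes with a tested, an opened or a closed start region, with the axis cut at 6 on either side. The curve of the 134 genes with a closed start lies left of the others (median -1.43) and that of the 264 with an opened start lies to the right (0.34).

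For closed regions at any place within 5 kb of a gene the RNA shift was smaller than at starts (median -0.18 against -1.43). For opened regions it was not smaller (median 0.37 against 0.34). Of 734 tested genes with opened but no closed regions 157 rose (21.4%) and 22 fell (3%). Of 2330 with closed but no opened regions 430 fell (18.5%) and 132 rose (5.67%). Among the 9659 genes with neither, 7.79% rose and 7.68% fell. Genes whose closed region held a GATA match fell in 17.6% of 769 cases and those without one in 18.9% of 1561, a difference that was not tested.

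Genes with many closed regions differed in RNA. ELMO1, which activates the small GTPase RAC in cell movement, had 11 closed among 16 regions, and its RNA fell from 563, 630 and 583 to 23, 30 and 21 (-4.54, SE 0.15, adjusted p 7.0e-10). SND1, an RNA-binding coactivator, also had 11 closed, of 19 regions, and its RNA did not pass the test (0.16, adjusted p 0.07). KAZN had the most, 16 of 37 over a span of 1224.5 kb, with an RNA log2 fold change of -0.33 (adjusted p 0.0053). The ranking is by count and takes no account of gene length or number of regions. Over all tested regions 13.2% closed. CCNY (8 of 14 closed) had an RNA log2 fold change of -0.91 (adjusted p 6.5e-08, under 2-fold) and RALGPS1 (8 of 16) of -1.31 (adjusted p 5.2e-05), and 4 genes shared that count of 8.

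The highest counts of opened regions at a gene were lower, and over all tested regions 2.88% opened. MAML3, a coactivator of Notch signalling, had 5 opened and 1 closed among 11 regions, and its RNA rose from 57, 67 and 44 to 694, 637 and 736 (3.62, SE 0.15, adjusted p 3.5e-09). GSE1, with a span of 506 kb, had 7 opened and 1 closed among 57 regions with RNA at 0.81 (adjusted p 1.2e-06, under 2-fold). MRPL23 had 5 opened of 8 regions with RNA at -0.15 (adjusted p 0.051). GPC5, with a span of 1468.6 kb, had 4 of 15, with RNA values of 1 to 3 in every library. The place after it was shared by 9 genes with 3 opened regions.

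Of 21 motifs searched on both strands in the 201 bases around the summit, GATA stood apart among closed regions. AGATAAG was found in 8.42% of all tested regions, in 26.5% of closed, 2.62% of opened and 5.79% of regions not called. Closed regions had a share of 26.5% with scaling within GC bins, 28.7% without scaling, and 27.8% against 6.39% overall among regions with a peak in all 6 libraries. Within quintiles of GC content the share in closed and not called regions was 29.7% and 12.6% in the lowest quintile, 22.8% and 6.02% in the middle one, and 11.2% and 0.853% in the highest. Closed shares were above the not called shares in every quintile.

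The closed share was higher where the window held more matches. Of 49785 regions without a GATA match 10.6% closed and 3.06% opened. Of 4307 regions with 1 match 40.4% closed, and of 265 with 2 matches 57.7% closed and none opened. Among regions with GC content at or above the median the closed shares were 3.97%, 28.8% and 55.2% for 0, 1 and 2 matches (29 regions in the last). Without scaling the corresponding closed shares over all regions were 6.59%, 27.9% and 46%. In RNA GATA1 went from 8207, 8194 and 8196 to 5819, 5560 and 5347 (-0.56, adjusted p 3.0e-06, under 2-fold), and GATA2 did not pass the test (0.04, adjusted p 0.59).

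**Figure D4:**
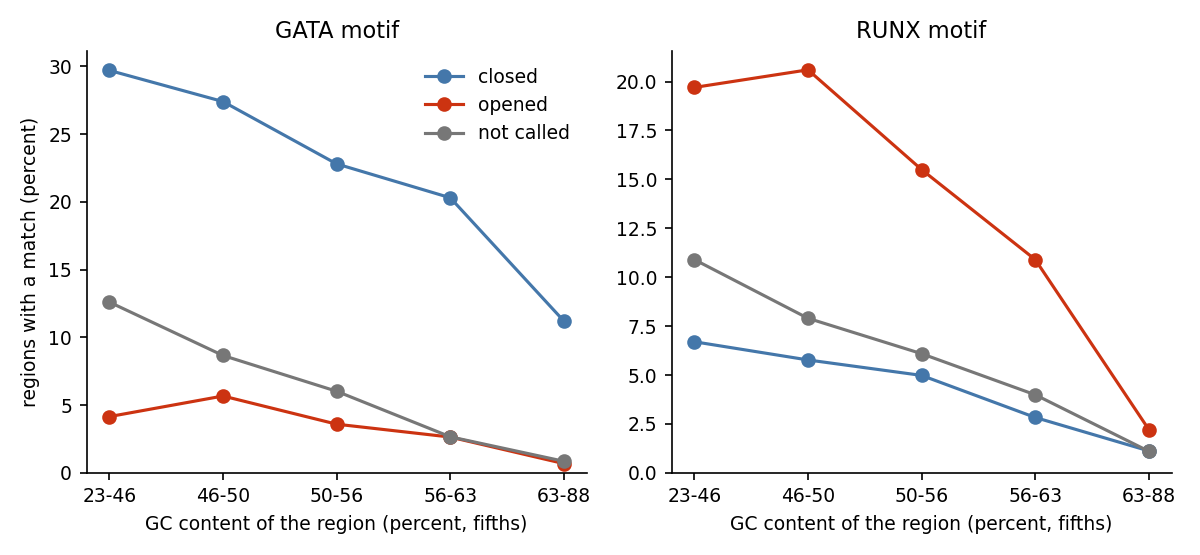
Share of regions (percent) with a GATA match (left) or a RUNX match (right) within 100 bases of the summit, in quintiles of GC content, for closed, opened and not called regions. The closed line lies above the others for GATA (29.7% to 11.2%) and the opened line for RUNX (19.7% to 2.21%).

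RUNX matches (TGTGGTT) were found in 10.7% of opened, 5.65% of closed and 5.83% of all tested regions. Within quintiles of GC content the opened share exceeded the not called share, with 19.7% and 10.9% in the lowest, 20.6% and 7.9% in the second and 2.21% and 1.1% in the highest. The opened share was 14.6% with scaling within GC bins and 7.22% without scaling. RUNX1 RNA went from 2770, 2517 and 2562 to 4953, 4377 and 4489 (0.82, adjusted p 7.0e-07) and RUNX3 RNA fell from 66, 49 and 49 to 7, 7 and 9 (-2.68, adjusted p 2.0e-06).

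GGGCGG, the SP/KLF box, was in 38.1% of opened, 6.41% of closed and 25.9% of all regions, and in 74.4% of opened and 73% of not called regions of the highest GC quintile. CTCF matches, at insulators, were in 4.87% of all regions but 2.17% of opened and 0.615% of closed ones, and 1.66% of the regions with a match closed. AP-1 matches (TGANTCA) were in 12.3% of opened, 21.6% of closed and 17.3% of all regions. With scaling within GC bins the opened and closed shares were 19.1% and 18.2%, and in the 3 quintiles of lowest GC content the closed shares (24.7%, 21.8% and 19.3%) lay below the not called shares (29%, 24.7% and 19.7%). ETS matches (CCGGAAG) were in 4.09% of opened, 1.62% of closed and 5.13% of all regions. The WT1 letters GCGTGGGAG were in 1.4% of opened, 0.308% of closed and 0.521% of all regions, 22 regions in each direction. In the middle GC quintile the WT1 share was 2.39% of 251 opened and 0.387% of not called regions, and in the lowest it was 0% of 193 opened and 0.137% of not called regions. A match says only that the letters are present.

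In 3 of 4 erythroid lists the share of closed regions was above the 13.2% of all tested regions. Of 69 regions within 5 kb of 16 erythroid transcription factors 14 closed (20.3%) and 2 opened. Of 59 by heme and iron genes 14 closed (23.7%) and 1 opened, and of 73 by erythroid membrane genes 24 closed (32.9%) and 1 opened. Medians of log2 fold change were -0.14, 0.02 and -0.61 against -0.10 over all regions. Without scaling these lists had 9, 10 and 19 closed regions and 7, 4 and 3 opened, with medians of 0.19, 0.35 and -0.30 against 0.19 over all regions. With scaling within GC bins the medians were -0.15, -0.14 and -0.43 against -0.05. The median of the transcription factor list thus changed sign with the scaling, and that of the heme and iron list lay above the overall median with 2 of the scalings and below it within GC bins. The lists are short and were chosen with results of these data known. Of the 52 closed regions of these lists and the globins outside chromosome 8, 19 held a GATA match, 38 were called without scaling and 22 had a peak in all 6 libraries.

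**Figure D5:**
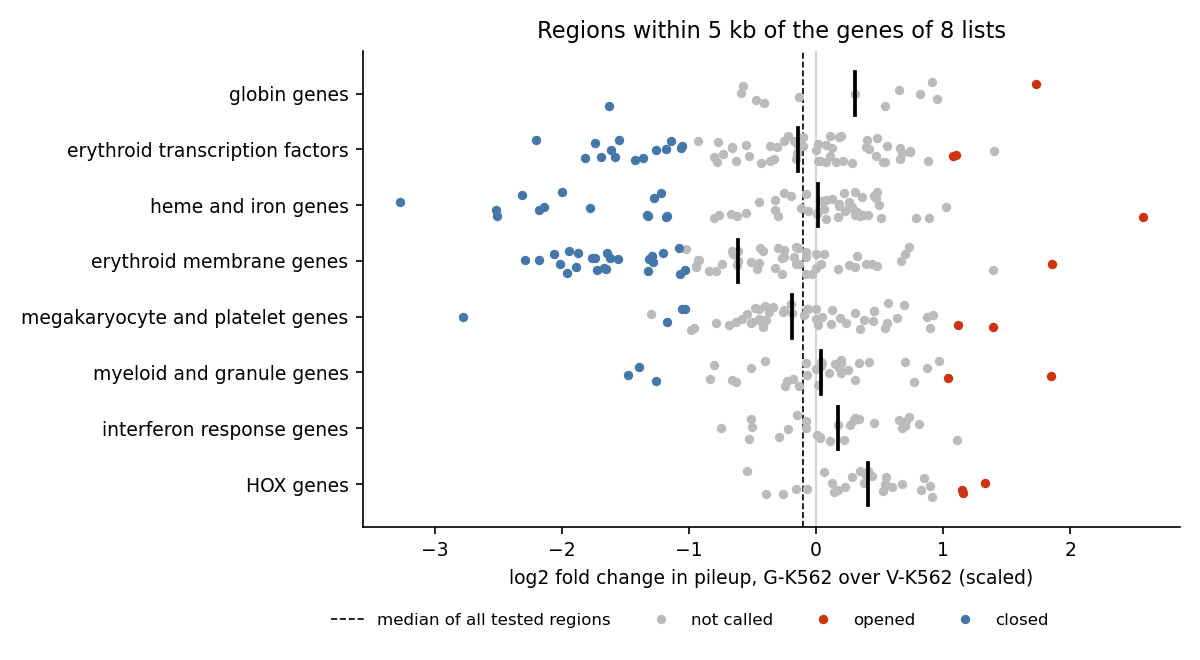
Log2 fold change in scaled pileup of each tested region within 5 kb of the genes of 8 lists; points are regions (blue closed, red opened, grey not called), black bars the list medians and the dashed line the median of all tested regions (-0.10). The erythroid membrane list has the lowest median (-0.61) and the HOX list the highest (0.41).

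Among erythroid transcription factors, TAL1 closed at 2 distal regions past the gene. One had 94, 64 and 83 in V-K562 and 26 in a single G-K562 library (-2.20, SE 0.22, adjusted p 4.1e-04), and the other 48, 56 and 53 against no peak (-1.74). TAL1 RNA was -0.79. GATA1 closed upstream of its start, with a GATA match, from 95, 90 and 92 to 50, 57 and 62 (-1.06, SE 0.13, adjusted p 8.5e-04), and downstream of the gene from 69, 81 and 79 to 32, 28 and 28 (-1.69). NFE2, a globin activator, closed upstream of its start from 246, 237 and 261 to 153, 150 and 128 (-1.14, SE 0.11, adjusted p 3.4e-04). These regions were named because they were called, so lower G-K562 values are part of that choice. B-K562 had 41, 46 and 50 and 65, 83 and 75 at the 2 TAL1 regions. It had 127, 100 and 117 and 131, 107 and 150 at the 2 GATA1 regions. GFI1B, a repressor of the same program, closed by -1.26 with an RNA log2 fold change of -1.98, and LMO2 closed at one start (-1.42) and opened upstream (1.08) with RNA at -1.26. MYB and KLF3 also closed in introns, as did IKZF1. FOXO3 closed at 3 regions and opened at 1 downstream, where G-K562 had 114, 100 and 126 against 31, 49 and 45. Of the 15 factors tested in RNA 3 fell past 2-fold and none rose past it, against 10.3% and 8.81% of all genes tested. KLF1, the main activator of adult globin, fell from 2558, 2662 and 2428 to 1019, 951 and 781 (-1.48, adjusted p 8.6e-08).

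Closed regions of heme and iron genes lay in introns, in an exon, at a start and upstream of starts. ALAS2, the first enzyme of the erythroid pathway, closed in an intron from 88, 120 and 105 to 28, 20 and 19 (-2.51, SE 0.20, adjusted p 2.3e-04), while B-K562 had 134, 159 and 164. Its RNA went from 3226, 3426 and 3552 to 1913, 2215 and 1885 (-0.77, adjusted p 2.7e-06). The GATA-bearing CPOX intron shown above went from 68, 81 and 82 to no peak, 17 and 27 (-2.14, SE 0.19, adjusted p 3.2e-04), and CPOX RNA fell from 4423, 4550 and 4259 to 665, 615 and 580 (-2.83, adjusted p 8.8e-11). Both introns were named because they were called, so their lower G-K562 values are part of that choice. Further closed regions were in or by FECH (-1.78), UROD (-1.17), UROS (-1.27), BLVRB (-2.52) and the mitochondrial glycine carrier SLC25A38 (-2.31). FTL, a ferritin chain, gained a region upstream with 132, 110 and 119 against no V-K562 or B-K562 peak (2.57, SE 0.16, adjusted p 1.6e-04), and its RNA was -0.34.

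Red cell membrane genes held the most closed regions. RHCE closed in an intron from 239, 238 and 220 to 60, 69 and 92 (-2.01, SE 0.15, adjusted p 2.1e-04) and, at the GATA-bearing region shown above, from 71, 68 and 60 to 26, 26 and 27 (-1.64). B-K562 had 270, 246 and 241 and 111, 105 and 102 there. ACKR1, the Duffy antigen, closed at its start from 66, 69 and 62 to no peak (-2.06, SE 0.16, adjusted p 2.2e-04), and its RNA fell from 47, 50 and 79 to 2, 4 and 1 (-4.22). These regions too were named because they were called. GYPB and GYPE closed at their starts (-2.18 and -2.29), RHD at 4 regions (-1.28 to -1.65), and SLC4A1, GYPC and EPB42 by up to -1.96. RHD and RHCE, and GYPB and GYPE, are near-identical. The authors kept only uniquely mapping reads, so tags that fit both copies could be missing. KEL closed at its start (-1.31) and in one intron region (-1.29) but opened at the RUNX-bearing intron region, with 76, 68 and 75 in G-K562 alone (1.86). KEL RNA fell from 3694, 3478 and 3662 to 1144, 1194 and 1153 (-1.63). Of 21 membrane genes tested in RNA 11 fell past 2-fold and none rose past it, with SPTB (-3.19) and EPB42 (-2.55) among those that fell. Over all genes tested 10.3% fell and 8.81% rose past 2-fold.

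At the globin loci RNA fell while few regions were called. All 9 globin genes tested in RNA fell, HBG2 from 37719, 41997 and 35315 to 5396, 5597 and 5347 (-2.81, adjusted p 8.8e-11) and HBZ from 3333, 2995 and 2223 to 466, 622 and 385 (-2.54). Over all genes tested 10.3% fell. HBG1 and HBG2, and HBA1 and HBA2, are near-identical copies, and reads that fit both could be missing. Yet of 13 regions within 5 kb of globin genes 1 opened and 1 closed (7.69% each), against 2.88% and 13.2% over all tested regions. A difference from those shares was not tested. The regions were assigned to 7 of 11 globin genes, and none to HBA1 or HBA2. The opened one lay upstream of HBG2 with 32, 46 and 33 in V-K562 and 147, 160 and 166 in G-K562 (1.73, SE 0.16, adjusted p 3.4e-04), against 43, 45 and 28 in B-K562. The closed one lay 473 bp past a distal start of HBZ, with 36, 58 and 54 in V-K562 and no G-K562 peak (-1.63, SE 0.21, adjusted p 0.001), and B-K562 had 104, 100 and 109. RNA of HBG2 and its upstream region thus moved in opposite directions.

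Upstream of the beta-like globins, in an intron of a longer HBE1 transcript, a region with a GATA match had 146, 137 and 107 in V-K562 and 129, 136 and 108 in G-K562 (-0.41, SE 0.16, adjusted p 0.076), and its neighbour with an AP-1 match 193, 224 and 180 against 340, 295 and 310 (0.31, SE 0.10, adjusted p 0.035, under 2-fold). In the introns of NPRL3, which hold distal control elements of the alpha-globins, the strongest region had 131, 188 and 160 against 187, 205 and 124 (-0.26, adjusted p 0.37). Another NPRL3 intron region, with a GATA match, closed from 62, 99 and 70 to 51, 35 and 41 (-1.18, SE 0.21, adjusted p 0.004), and one more closed to no peak (-1.34).

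Against 2.88% opened and 13.2% closed over all tested regions, HOX genes had 3 opened and no closed region among 29 (10.3% opened), in HOXB4, HOXD8 and HOXA3. None of these 3 had a V-K562 peak, so they were tested only through their G-K562 peaks, and no HOX region with a peak in all 6 libraries was called. The HOX median was 0.41, with 0.70 without scaling, 0.36 within GC bins and 0.20 where each of the 6 libraries had a peak. The HOXA3 intron region had 48, 42 and 43 tags in G-K562 and no V-K562 peak (1.16, SE 0.14, adjusted p 7.8e-04), and HOXA3 RNA rose from 25, 17 and 25 to 346, 315 and 303 (3.81, adjusted p 7.5e-09). Of 22 HOX genes tested in RNA 10 rose and 1 fell, against 8.81% and 10.3% of all genes tested. Interferon response genes had no called region among 27. Myeloid and granule genes had 2 opened (5.41%) and 3 closed (8.11%) of 37, the largest rise in an intron of SPI1 (76, 78 and 64 against no peak, 1.85), whose RNA did not pass the test (0.09). Megakaryocyte and platelet genes had 2 opened (3.64%) and 4 closed (7.27%) of 55, the largest fall upstream of ITGA2B, the platelet integrin, from 114, 124 and 91 to no peak (-2.78, SE 0.17, adjusted p 1.6e-04), with RNA falling from 4281, 4339 and 4628 to 1057, 832 and 682 (-2.39).

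The remaining lists held, as opened and closed of all regions, 12 and 18 of 151 for axon guidance genes, 4 and 18 of 102 for collagens, 2 and 12 of 106 for nuclear receptors, 2 and 8 of 90 for WNT pathway genes, and 0 and 8 of 80 for integrins. In the same order the opened shares were 7.95%, 3.92%, 1.89%, 2.22% and 0% against 2.88% over all tested regions, and the closed shares 11.9%, 17.6%, 11.3%, 8.89% and 10% against 13.2%, so several lay near the overall share. In the axon guidance list the receptor UNC5C closed in an intron with 2 GATA matches, from 72, 99 and 108 to 29, 25 and 23 (-2.15, SE 0.20, adjusted p 3.4e-04), and its RNA fell from 35, 41 and 32 to 3, 2 and 0. SEMA4C opened at its start (1.85) although its RNA was -0.83. The largest changes of the others were in COL25A1 (-2.22) and COL23A1 (1.66), NR5A2 (-2.15), RARB (given above) and LEF1 (-2.69).
Cholesterol synthesis and uptake genes had 3 opened and 3 closed of 54. Pre-ribosome factors had 2 and 2 of 36, with UTP18 opened (1.21) and RRP15 closed (-1.16). AP-1 and EGR factors had 1 and 1 of 46, with MAFG opened (1.97) and BATF closed (-1.64). MAPK feedback genes had 0 and 3 of 37, with ETV1 closed at a RUNX-bearing region (-1.69). LIM homeobox and POU factors had 1 and 3 of 47, and LHX1 opened upstream (1.24) with RNA rising from 3, 2 and 0 to 209, 260 and 293. EGF family ligands and receptors had 1 and 4 of 30, with ERBB2 closed in an intron (-1.78) and NRG4 opened. Across these 6 lists the closed shares were 5.56%, 5.56%, 2.17%, 8.11%, 6.38% and 13.3%, and the opened shares 5.56%, 5.56%, 2.17%, 0%, 2.13% and 3.33%.

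At BASP1 one region was found, over its coding exon (chr5:17275124-17275897), with no V-K562 peak and with 63, 50 and 63 in G-K562 and 57, 47 and 46 in B-K562 (1.55, SE 0.16, adjusted p 4.8e-04). Tags of the transfected coding sequence and of the gene itself cannot be told apart there. In the list of BASP1 relatives and N-myristoyltransferases 3 regions opened, this one included, and 1 closed of 21, the latter upstream of MARCKSL1 (-1.76). These shares were 14.3% and 4.76%, against 2.88% and 13.2% over all tested regions, and the difference was not tested. B-K562 had 46 tags in 1 library and no peak in the others at the MARCKSL1 region.

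WT1, the factor that BASP1 binds, opened at the RUNX-bearing region, 3428 bp upstream of a start inside the gene. V-K562 had 29, 33 and 26 there, G-K562 77, 75 and 106 and B-K562 37, 32 and 33 (1.16, SE 0.19, adjusted p 0.0023). A region 457 bp upstream of another start had 51, 77 and 73 against 153, 158 and 159 (0.89, SE 0.16, adjusted p 0.0037, under 2-fold), and the region 117 bp upstream 37, 44 and 40 against 61, 85 and 89 (0.58, adjusted p 0.04, under 2-fold). The other three WT1 regions had -0.03, -0.47 and -0.88 and did not pass the test. WT1 RNA rose from 1286, 1190 and 1153 to 3218, 2906 and 3297 (1.37, SE 0.07, adjusted p 1.8e-08).

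AREG, EREG, VEGFA and VDR, known WT1 target genes, had 12 regions, of which 2 closed (16.7%, against 13.2% over all tested regions) and none opened. AREG had 53, 67 and 69 against 88, 68 and 104 at its start (0.09, SE 0.18, adjusted p 0.69), and in an intron -0.32 (adjusted p 0.36). EREG had 20, 20 and 24 against 56, 65 and 39 in its first exon (0.92, SE 0.24, adjusted p 0.019, under 2-fold) and 0.15 in an intron, with RNA rising from 18, 9 and 13 to 64, 86 and 78 (2.46, adjusted p 5.9e-06). At the EREG exon G-K562 lay above B-K562 by 1.37 (adjusted p 7.5e-04), and B-K562 had no peak in 2 libraries and 15 tags in the other. VEGFA had 93, 116 and 122 against 156, 134 and 141 upstream (0.04, SE 0.12, adjusted p 0.84) and 0.49 in an intron (adjusted p 0.49). VDR closed at 2 GATA-bearing intron regions, one from 50, 45 and 39 to no peak (-1.51, SE 0.17, adjusted p 5.9e-04) and one from 57, 37 and 57 to 19, 30 and 45 (-1.05, SE 0.33, adjusted p 0.035). B-K562 had no peak in any library at the first and no peak, 20 and 24 at the second. In the limma fit of 9 libraries it lay below V-K562 at both (-1.52, adjusted p 1.7e-04, and -1.42, adjusted p 0.0076). At the VDR start V-K562 had 54, 43 and 43 and G-K562 83, 55 and 70 (0.20, adjusted p 0.42), and the other three VDR regions gave -0.36, 0.00 and 0.93 without a call.

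Accessibility was also compared over chromosome stretches. Of 443 windows of 5 Mb 362 had a median log2 fold change within 0.25 of 0. The 3 highest were on chromosome 14, at 105000001 to 110000000 (0.81), 75000001 to 80000000 (0.66) and 95000001 to 100000000 (0.61), and in the first of them the 3 G-K562 libraries stood at 0.72, 0.90 and 0.86 and the V-K562 libraries at -0.09, 0.01 and -0.00. The lowest outside chromosome 8 were on chromosome 4 at 150000001 to 155000000 (-0.66) and 180000001 to 185000000 (-0.62) and on chromosome 10 at 1 to 5000000 (-0.63). RNA moved with them, with a median log2 fold change over tested genes of 0.71 in the highest window and of -0.46, -0.66 and -0.70 in the 3 lowest.

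Beyond 70 Mb of chromosome 14, a border set after the values were seen, 131 of 766 regions opened (17.1%) and 31 closed (4.05%), with a median of 0.60 over the 412 with a peak in all 6 libraries and an RNA median of 0.62 over 201 genes. Up to 70 Mb 14 of 692 opened (2.02%) and 60 closed (8.67%), with medians of 0.09 in accessibility and -0.02 in RNA. After centring each 5 Mb window 25 regions of the distal stretch opened and 57 closed. GPR132 and PPP4R4 lie in this stretch, and with window centring their log2 fold changes were 1.30 and 1.43 (adjusted p 0.0016 for each), so GPR132 remained opened with a smaller value.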

How the data were processed

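ATAC-seq of K562 pools was compared with 3 libraries per line. The authors sequenced 42-nt read pairs, aligned them to GRCh38, sampled the libraries to equal tag numbers, called peaks per library with MACS2 and deposited the intervals of each with the summit pileup, a signal (coverage) value. For RNA-seq the authors deposited a score, normalized counts rounded to whole numbers, made with Subread and DESeq2. Tool versions are not given in the sources used here. Fold changes and p-values of the authors' own comparisons and a second RNA table were not used.

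Intervals were merged as described with the results, and places and genes came from GENCODE 44. Genes with annotated copies far apart were left out. Library scaling used a trimmed mean of log ratios (30% and 5% trimmed). Values were log2(pileup + 1) and log2(RNA value + 1), tested with limma 3.58.1 with trend (R 4.3.3) and Benjamini-Hochberg adjustment, with fold changes of low values understated. RNA needed a value of 10 in at least 3 of 6 libraries. Tests were two-sided and were tested on simulated data. B-K562 entered a second fit of 9 libraries, whose comparisons share V-K562, so values are only set side by side. Motifs were searched in 201 bp around summits. Wilson 95% intervals cover counting error only, and tag depth per library was equalised by the authors.

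The members, lists and motifs were chosen with earlier results of these data known. Named regions were the 6 largest rises and falls with a peak in all 6 libraries, the 5 highest with a peak in 1 line alone, the 5 starts changed most each way, all regions of WT1, BASP1, the WT1 targets and the globin loci, called regions of the erythroid and HOX lists, and the largest changes of each other list. Regions on chromosome 8 and some other items that this rule selects are not reported here. Repeat content was not analysed here. Scaling, floor, filters, pseudocount, summit value, overlap, replicates and thresholds were varied.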

Additional observations from a re-analysis of the deposited data

Results flagged for a closer look

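The BASP1 exon region had summit pileups of 57, 47 and 46 in the 3 B-K562 libraries, which lie outside the comparison of G-K562 with V-K562, while no V-K562 library had a peak there. At the TANGO2 intron the lines moved in opposite directions from V-K562. G-K562 lay below B-K562 by -5.14 on the log2 scale (adjusted p 5.6e-09, limma), with G-K562 at -4.12 and B-K562 at 1.01 (adjusted p 1.6e-04) against the shared V-K562 libraries.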

How the results depend on the processing

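The number of opened and closed regions depended on the settings. Opened regions numbered 8656 with no fold change criterion, 5026 at 1.5-fold, 4349 without scaling, 2869 with absent peaks set to the lowest summit pileup, 917 with a pseudocount of 10 and 426 with a peak in all 6 libraries. Closed regions numbered 14122, 12405, 4606, 10766, 4574 and 2401 under the same settings. A pair of alternatives chosen after seeing the data, each with a peak in all 6 libraries, gave 2006 called regions with scaling within GC bins, of which 1444 (72%) were closed, against 8716 called regions in the report, and 2376 opened and 1191 closed regions without scaling, where opened regions outnumbered closed ones. Leaving out 1 library at a time gave 1329 to 1724 opened and 6813 to 7334 closed regions. With a summit within 1 kb of the gene's start, 83 genes near opened regions rose in RNA (157 in the report) and 112 near closed regions fell (430). With an upstream window of 1 kb, 28.8% of opened regions (39.3%) and 4.07% of closed ones (10.7%) lay at or upstream of starts.

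Deviations of libraries with the same replicate number correlated at 0.07, 0.04 and 0.02, and those with different numbers at -0.05 to 0.01. The same-number values were higher but small, and the main fit did not pair the libraries. A fit with the number as a replicate block gave 1662 opened and 7174 closed regions and changed none of the 118 calls of named regions. None of these 118 changed direction in any alternative, but 17 lost the call without scaling, 16 with scaling within GC bins, 19 with a pseudocount of 10, 15 with the mean pileup and 4 to 9 without 1 library.

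Reversals were found only among uncalled named regions. Without scaling, log2 fold changes turned to 0.12 (OR51B4, start 5291281), 0.31 (WT1, 32426831), 0.09 (NPRL3, 113261), 0.21 (HBZ, 152420) and 0.02 (AREG, 74451137). With scaling within GC bins they turned to 0.04 (HBE1, 5275630), 0.22 (OR51B4, 5291281), -0.05 (VDR, 47904791), -0.05 (AREG, 74444837), 0.14 (AREG, 74451137) and -0.22 (VEGFA, 43769507). With window centring NPRL3 gave -0.11 (96930) and -0.25 (107050). Without 1 library the values ranged from -0.19 to 0.16 for WT1 (32426831, 0.00 and 0.16 without replicate 1 of either line), -0.34 to 0.19 for VDR (47870561, also -0.07), -0.25 to 0.01 for HBZ (152420), -0.03 to 0.23 for AREG (74444837, also -0.01), -0.07 to 0.11 for VEGFA (43769507, also -0.02) and -0.19 to 0.86 for VEGFA (43774774). VDR (47870561) also gave -0.07 with absent peaks at the 10th percentile, -0.03 with the mean pileup, -0.01 with a pseudocount of 10 and -0.05 with stricter peaks, where VEGFA (43769507) gave -0.03. The causes were not tested. Summits below about 17 tags limit what can be detected. Fold changes at regions without a peak, or with a scaled pileup below 17, rest on the filled value.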
